A study of Saccharomyces cerevisiae with 11 samples.

Results

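The general stress response genes of budding yeast were followed in strains with mutated histone H2A. A fixed list of 39 genes of the Msn2 and Msn4 type was taken, among 5415 genes tested in all, and each gene was represented by the probe set that the array annotation assigns to it (the brightest, where there were several). All 39 genes lay above the background of the array on all 11 arrays, and none of them rests on a probe set shared with another transcript. The array is an Affymetrix Yeast Genome 2.0 chip, and its values are MAS5 signals, linear intensities from which the background had been removed and which have the same trimmed mean on every array.

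Msn2 and Msn4 are paired zinc finger activators that bind the stress response element (STRE) in the promoters of many genes. In growing cells on glucose, protein kinase A and the Tor pathway keep them out of the nucleus, and heat, osmotic shock, oxidants, ethanol or the loss of glucose let them in. Their targets make glycerol and storage carbohydrates, break down peroxides and aldehydes, refold or degrade damaged proteins, and protect membranes, and the same program comes with lower expression of the genes for ribosome assembly.

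In every strain the chromosomal H2A genes are deleted and H2A is made from a plasmid. R11ΔS15 (2 arrays) has an arginine inserted at position 11 of the H2A tail and lacks serine 15, ΔS15 (2 arrays) lacks serine 15 alone, R11 (2 arrays) has the arginine alone, K11 (2 arrays) has a lysine at the same place, and WT (3 arrays) has unchanged H2A. The genotype entry of both R11ΔS15 samples names a lysine, whereas their titles and the strain list of the study name an arginine. They are treated as arginine strains here. All cultures grew in YPD without any treatment, were diluted to an OD600 of 0.2 and were harvested in log phase at 0.8, and poly(A) RNA was hybridized. The replicates are described as biological, so that p-values measure the spread between such cultures and arrays. On arrays of pooled cells, a change in all cells and a change in some of them cannot be told apart.

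A set of 12 probe sets for spike-in RNA divided the arrays into 2 sets that the labels do not name. The mean log2 signal of these controls was 10.61 to 10.66 in the dimmer set (both R11ΔS15 arrays, both ΔS15 arrays and WT replicate 3) and 10.81 to 10.98 in the brighter set (both R11 arrays, both K11 arrays and WT replicates 1 and 2). The ratio of the 3′ to the 5′ probe sets of ACT1 was 1.04 to 1.11 in the dimmer set and 1.26 to 1.35 in the brighter set. Only WT had arrays in both sets. The genes of chromosome IX lay at a median of 0.80 above WT (log2) on R11ΔS15 replicate 2 and 0.76 on ΔS15 replicate 1, and OM45 is the only one of the 39 genes on this chromosome. Of the markers of the mating type, the alpha-factor receptor gene STE2 had signals of 3968 to 4606 and the alpha-factor gene MF(ALPHA)1 had 29.1 to 64.2, although the alpha-agglutinin gene SAG1 had 645 to 823. The 18 markers of the post-diauxic and stationary phase summed to signals of 9070 to 10185 in R11ΔS15, 9382 to 9879 in ΔS15, 7537 to 9587 in R11, 7869 to 9658 in K11 and 7378 to 9512 in WT, with no marker at or below the background.

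The 39 genes were highest in R11ΔS15, intermediate in ΔS15 and close to WT in R11 and K11. The median of their log2 deviations from the WT mean was 0.22 and 0.21 on the R11ΔS15 arrays, 0.16 and 0.11 on the ΔS15 arrays, 0.01 and -0.02 on the R11 arrays, 0.06 and 0.06 on the K11 arrays, and -0.05, -0.04 and 0.10 on the WT arrays. Both R11ΔS15 arrays and both ΔS15 arrays thus lay above all 3 WT arrays, and the WT array nearest to them, replicate 3, is the one of the dimmer spike-in set. On this WT array 28 of the 39 genes lay above the WT mean, against 15 and 16 on the others. Where WT replicates 1 and 2 enter, the strain and the spike-in set cannot be told apart, so values within 1 set are given beside the pooled ones. The map of all 39 genes on the 11 arrays shows that the higher signals were concentrated in some of the genes, led by DDR2, TMA10 and OM45. OM45 lay 1.14 and 1.25 above the WT mean on the R11ΔS15 and ΔS15 arrays with raised chromosome IX. On the other array of R11ΔS15 and of ΔS15 it lay at 0.28 and 0.20.

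**Figure D1:**
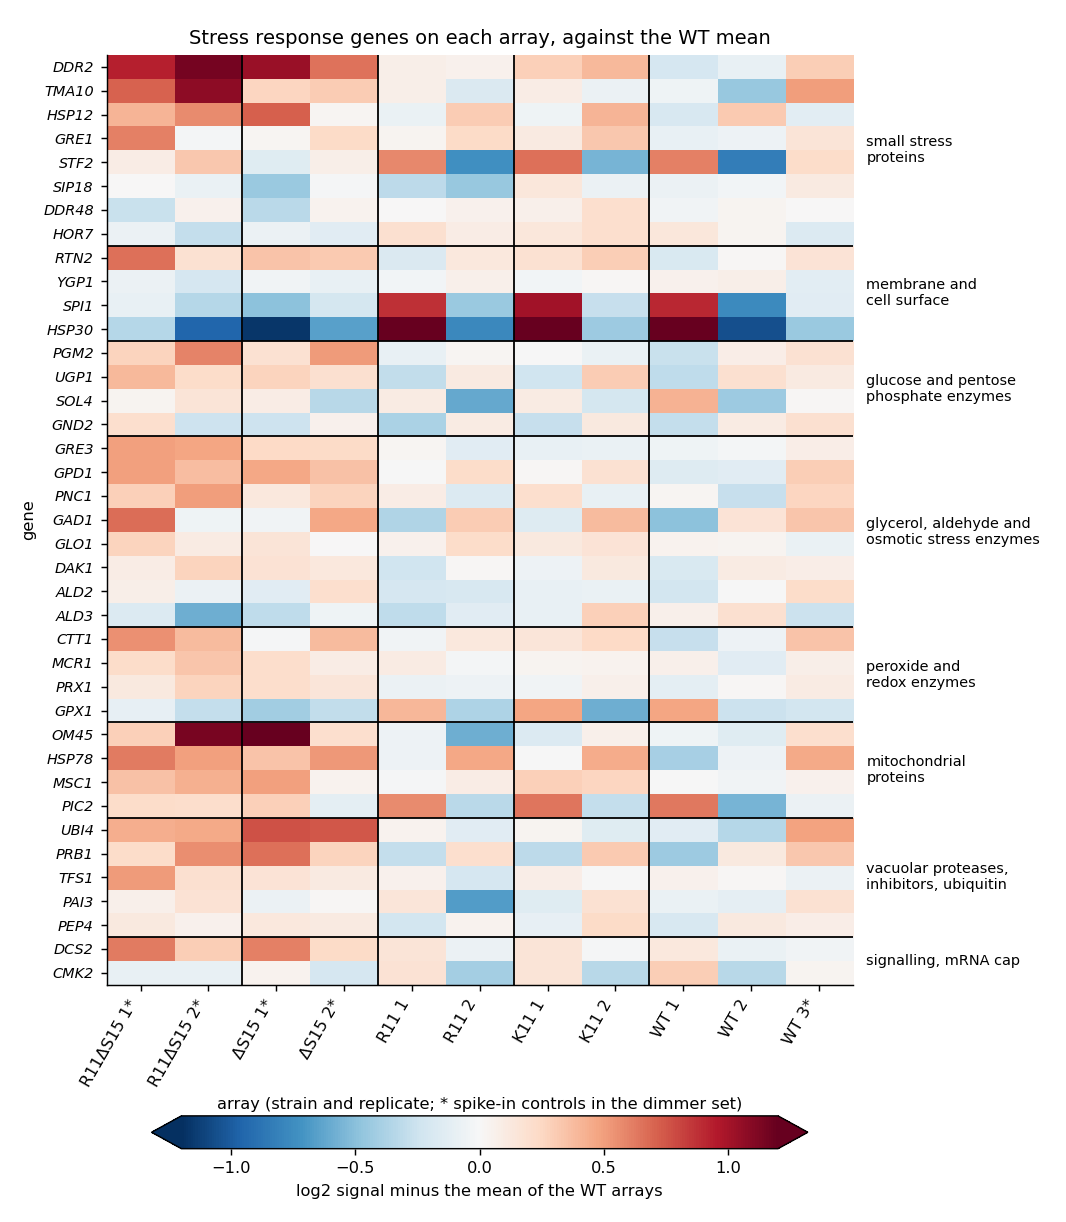
Log2 signal of each of the 39 genes (rows, grouped by role) on each of the 11 arrays (columns), minus the mean of the 3 WT arrays; red is above the WT mean, blue is below it, and colours saturate at the ends of the scale. DDR2 is red on all 4 arrays of R11ΔS15 and ΔS15, whereas HSP30, SPI1, STF2, PIC2 and GPX1 are red on the first replicate of R11, K11 and WT.

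Against WT, 28 of the 39 genes had an estimate on the higher side in R11ΔS15, and their median log2 fold change was 0.28. Among all 5415 genes, 50.4% were on the higher side and the median was 0.00. In 18 of the 39 genes (46.2%) both R11ΔS15 arrays lay above all WT arrays, where 10.6% of all genes did so, and in 0 both lay below, where 12.6% of all genes did so. An unadjusted limma p under 0.05 was reached on the higher side by 16 of the 39 genes, against 4.34% of all genes, and on the lower side by 0, against 5.71%. After Benjamini-Hochberg adjustment 0 of the 5415 genes passed limma's test at 0.05 (235 higher and 309 lower at an unadjusted p under 0.05). By these counts the 39 genes stood more often on the higher side than the tested genes did, while no single one of them met the threshold.

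DDR2, which encodes a small protein induced by DNA damage and many other stresses, had the lowest p of all genes in this comparison. Its signals were 784 and 913 in R11ΔS15, 845 and 647 in ΔS15, 431 and 425 in R11, 501 and 538 in K11, and 358, 386 and 503 in WT. Both arrays of either strain without serine 15 were above every other array, and K11 replicate 2 was above all WT arrays as well. The log2 fold change over WT was 1.04 in R11ΔS15 (standard error 0.17, 95% interval 0.67 to 1.41, limma adjusted p = 0.324), a ratio of 2.06, and DDR2 was the only one of the 39 genes among the 13 genes (0.240%) that differed 2-fold or more. HOR7, the related gene of an osmotic stress protein, was not higher: its estimate was -0.17 (standard error 0.10) and its signals were 4008 to 4660 in R11ΔS15 and 4339 to 5343 in WT.

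TMA10 encodes a small protein found with ribosomes. It had signals of 300.2 and 385 in R11ΔS15, 219 and 226 in ΔS15, 193 and 163 in R11, 194 and 175 in K11, and 177, 134 and 259 in WT. Both R11ΔS15 arrays were above all WT arrays, whereas both ΔS15 arrays lay below WT replicate 3. The estimate in R11ΔS15 was 0.89 (standard error 0.24, limma adjusted p = 0.449). STF2, which encodes a relative of Tma10 that acts with the mitochondrial ATP synthase, had an estimate of 0.21 with a standard error of 0.46 and overlapped with WT.

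HSP12, a membrane-stabilizing protein gene used as a reporter of the pathway, had signals of 2609 and 2916 in R11ΔS15, 3237 and 1997 in ΔS15, 1860.1 and 2434 in R11, 1898 and 2615 in K11, and 1723, 2447 and 1809 in WT. The R11ΔS15 arrays lay above WT, but the replicates of the other strains were as far apart as the strains. Its estimate was 0.49 (standard error 0.22, limma adjusted p = 0.495). The remaining small stress proteins varied less. GRE1 had an estimate of 0.29, and DDR48 and SIP18 had -0.11 and -0.04, all overlapping with WT, and 5 of these 8 genes were on the higher side with a median of 0.25.

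Of the enzymes of glycerol, aldehyde and osmotic stress metabolism, 6 of 8 were on the higher side in R11ΔS15 (median 0.24). The aldose reductase gene GRE3 was the most regular of them. Its signals were 1570.45 and 1548 in R11ΔS15, 1321 and 1309 in ΔS15, 1137 and 1015 in R11, 1049.6 and 1057 in K11, and 1078, 1097 and 1178 in WT. The R11ΔS15 arrays were highest, the ΔS15 arrays came next, and neither overlapped with the other or with WT. GRE3 ranked 4 among all genes by its p, with an estimate of 0.48 (standard error 0.10, limma adjusted p = 0.449).

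GPD1, the glycerol phosphate dehydrogenase gene at the entry of glycerol synthesis, had signals of 2728 and 2506 in R11ΔS15, 2686 and 2487 in ΔS15, 1938 and 2269.7 in R11, 1959 and 2203 in K11, and 1742, 1772 and 2379 in WT. All 4 arrays without serine 15 were above all WT arrays, of which replicate 3 came closest. The estimate was 0.43 (standard error 0.14, limma adjusted p = 0.449). The nicotinamidase gene PNC1 (0.40) and the glyoxalase gene GLO1 (0.18) also had both R11ΔS15 arrays above WT. The glutamate decarboxylase gene GAD1 (0.31) and the dihydroxyacetone kinase gene DAK1 (0.18) overlapped with WT. The aldehyde dehydrogenase genes ALD2 (-0.00) and ALD3 (-0.37, standard error 0.22) were on the lower side.

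**Figure D2:**
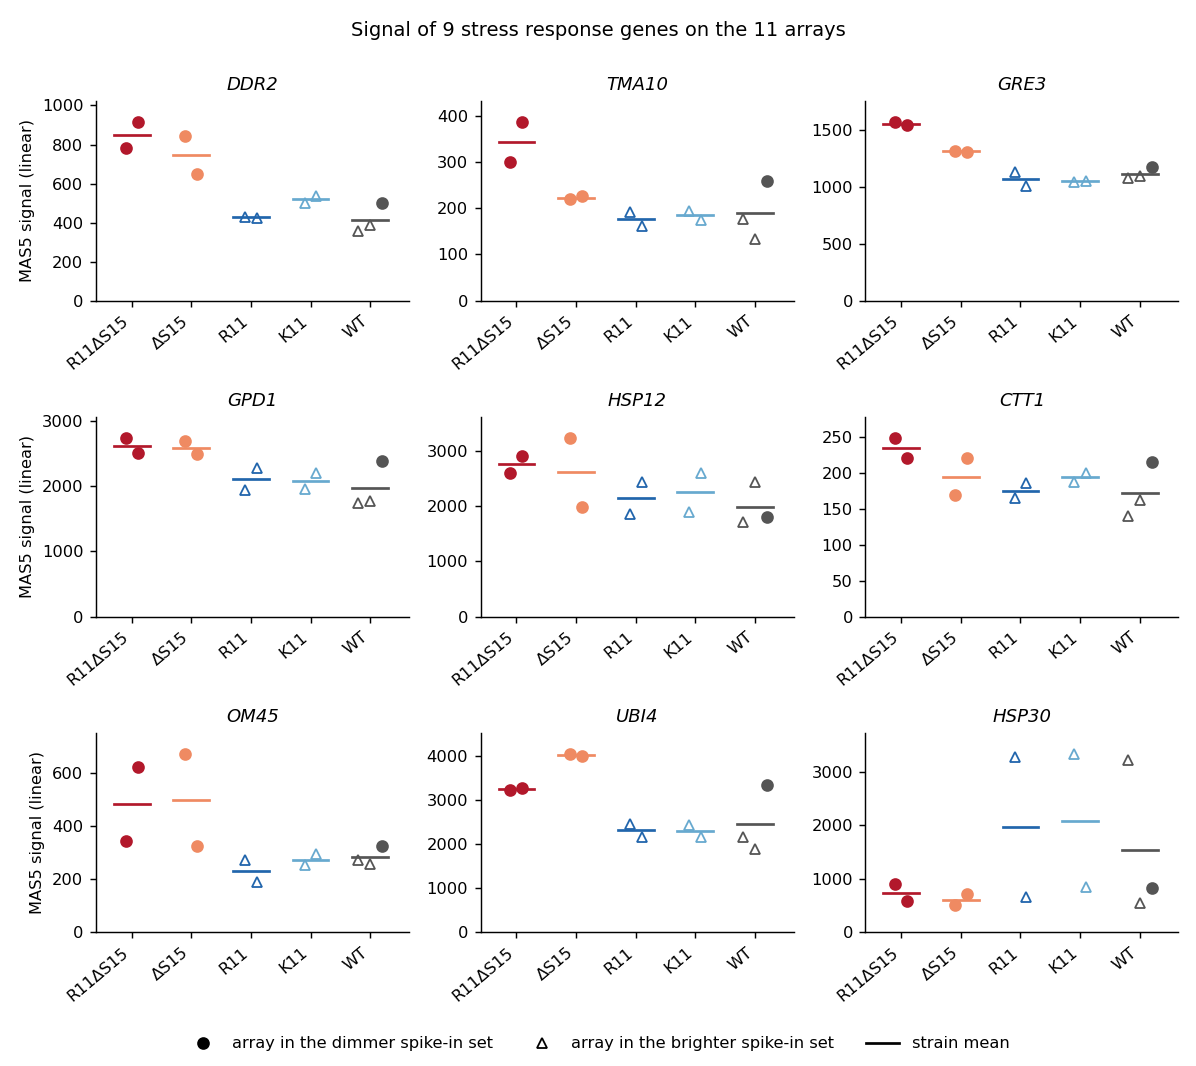
MAS5 signal (linear axis from 0) of 9 of the genes on the 11 arrays, by strain; each point is 1 array, bars are strain means, filled circles are arrays of the dimmer spike-in set and open triangles those of the brighter one. DDR2, GRE3 and GPD1 in R11ΔS15 and ΔS15 lie above WT, UBI4 on WT replicate 3 (3336) lies above both R11ΔS15 arrays, and HSP30 on replicate 1 of R11, K11 and WT lies at 3216 to 3330.

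Among the peroxide and redox enzymes, 3 of 4 genes were on the higher side in R11ΔS15 (median 0.24). CTT1, the cytosolic catalase gene and a classical STRE target, had signals of 248 and 220.4 in R11ΔS15, 168 and 220.5 in ΔS15, 164 and 185 in R11, 188 and 199.9 in K11, and 139.7, 162 and 215 in WT. The R11ΔS15 arrays exceeded WT replicate 3 by a small margin, and ΔS15 overlapped with WT. The estimate was 0.46 (standard error 0.20, limma adjusted p = 0.471). MCR1, a mitochondrial NADH-dependent cytochrome reductase gene, and PRX1, the mitochondrial peroxiredoxin gene, had 0.28 and 0.20 without overlap, and the glutathione peroxidase gene GPX1 had -0.19 with overlap.

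All 4 genes of mitochondrial proteins were on the higher side in R11ΔS15 (median 0.47). In 3 of them, OM45 among these, both R11ΔS15 arrays lay above all WT arrays, where 10.6% of all genes did so. OM45, an outer membrane protein gene on chromosome IX, had signals of 344 and 621 in R11ΔS15, 671 and 326 in ΔS15, 271 and 189 in R11, 253 and 295 in K11, and 272, 256 and 324 in WT. Its highest arrays are the R11ΔS15 and the ΔS15 array on which chromosome IX was raised, and on the other array of each strain it was near WT replicate 3. The estimate of 0.71 (standard error 0.31, limma adjusted p = 0.474) was 0.28 without those arrays, and the median of the 39 genes was then 0.22.

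HSP78, the gene of a disaggregating chaperone of the mitochondrial matrix, had signals of 308 and 280.1 in R11ΔS15, 253 and 286 in ΔS15, 192 and 275 in R11, 199 and 271 in K11, and 152, 192 and 274 in WT. Replicate 1 of R11 and K11 and replicates 1 and 2 of WT were low, and WT replicate 3 came close to R11ΔS15. Its estimate was 0.56 (standard error 0.25, limma adjusted p = 0.483). MSC1, which encodes another mitochondrial protein, had 0.39 without overlap, and PIC2, the gene of a mitochondrial phosphate and copper carrier, had 0.22 with overlap.

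The genes of the vacuolar proteases, their inhibitors and ubiquitin were all 5 on the higher side (median 0.35). The polyubiquitin gene UBI4 had signals of 3234 and 3275 in R11ΔS15, 4049 and 3996 in ΔS15, 2466 and 2172 in R11, 2439 and 2156 in K11, and 2166, 1883 and 3336 in WT. WT replicate 3 was above both R11ΔS15 arrays and below both ΔS15 arrays, and all arrays of the brighter spike-in set were below all arrays of the dimmer set. The R11ΔS15 estimate of 0.45 (standard error 0.19, limma adjusted p = 0.471) was -0.036 with the spike-in set as a term in the fit. That term sets R11ΔS15 against WT replicate 3 alone. The part of the spike-in split in the level of UBI4 was not tested further. TFS1, an inhibitor of the vacuolar carboxypeptidase, had 0.35 without overlap. The protease genes PRB1 (0.39) and PEP4 (0.08) and PAI3 (0.12), an inhibitor of the Pep4 protease, overlapped with WT.

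In glucose phosphate and pentose phosphate metabolism, 3 of 4 genes were on the higher side (median 0.20). PGM2, the phosphoglucomutase gene, had signals of 273 and 343 in R11ΔS15, 257 and 324 in ΔS15, 214 and 231 in R11, 226 and 215 in K11, and 189, 240.4 and 258 in WT. Only R11ΔS15 lay wholly above WT, by a small margin (estimate 0.43, standard error 0.18, limma adjusted p = 0.471). UGP1, which makes UDP-glucose for glycogen, trehalose and the cell wall, had 0.30 without overlap. SOL4 (0.09) and GND2 (-0.03), enzymes of the oxidative pentose phosphate pathway, overlapped with WT.

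The proteins of membranes and the cell surface formed the group with a median below 0 (-0.18), where 1 of 4 genes was on the higher side. That gene was RTN2, a reticulon of the endoplasmic reticulum (0.42, standard error 0.18, no overlap). The cell wall glycoprotein genes YGP1 (-0.14) and SPI1 (-0.21) overlapped with WT. HSP30, which encodes a negative regulator of the plasma membrane proton pump, had signals of 897 and 586 in R11ΔS15, 505 and 723 in ΔS15, 3279.7 and 666 in R11, 3329.8 and 839 in K11, and 3216, 545 and 836 in WT. The high values are the first replicates of R11, K11 and WT, and the others overlap. Its R11ΔS15 estimate of -0.65 (standard error 0.79, limma adjusted p = 0.807) was 0.10 without WT replicate 1.

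DCS2, a relative of the scavenger decapping enzyme gene DCS1, had signals of 234 and 187 in R11ΔS15, 230.5 and 178 in ΔS15, 169 and 145 in R11, 169 and 151 in K11, and 166, 143 and 147 in WT. In every strain replicate 1 was higher than replicate 2, and all 4 arrays without serine 15 were above WT. The estimate was 0.46 (standard error 0.18, limma adjusted p = 0.449). CMK2, the gene of a calmodulin-dependent protein kinase, had -0.09 and overlapped with WT.

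**Figure D3:**
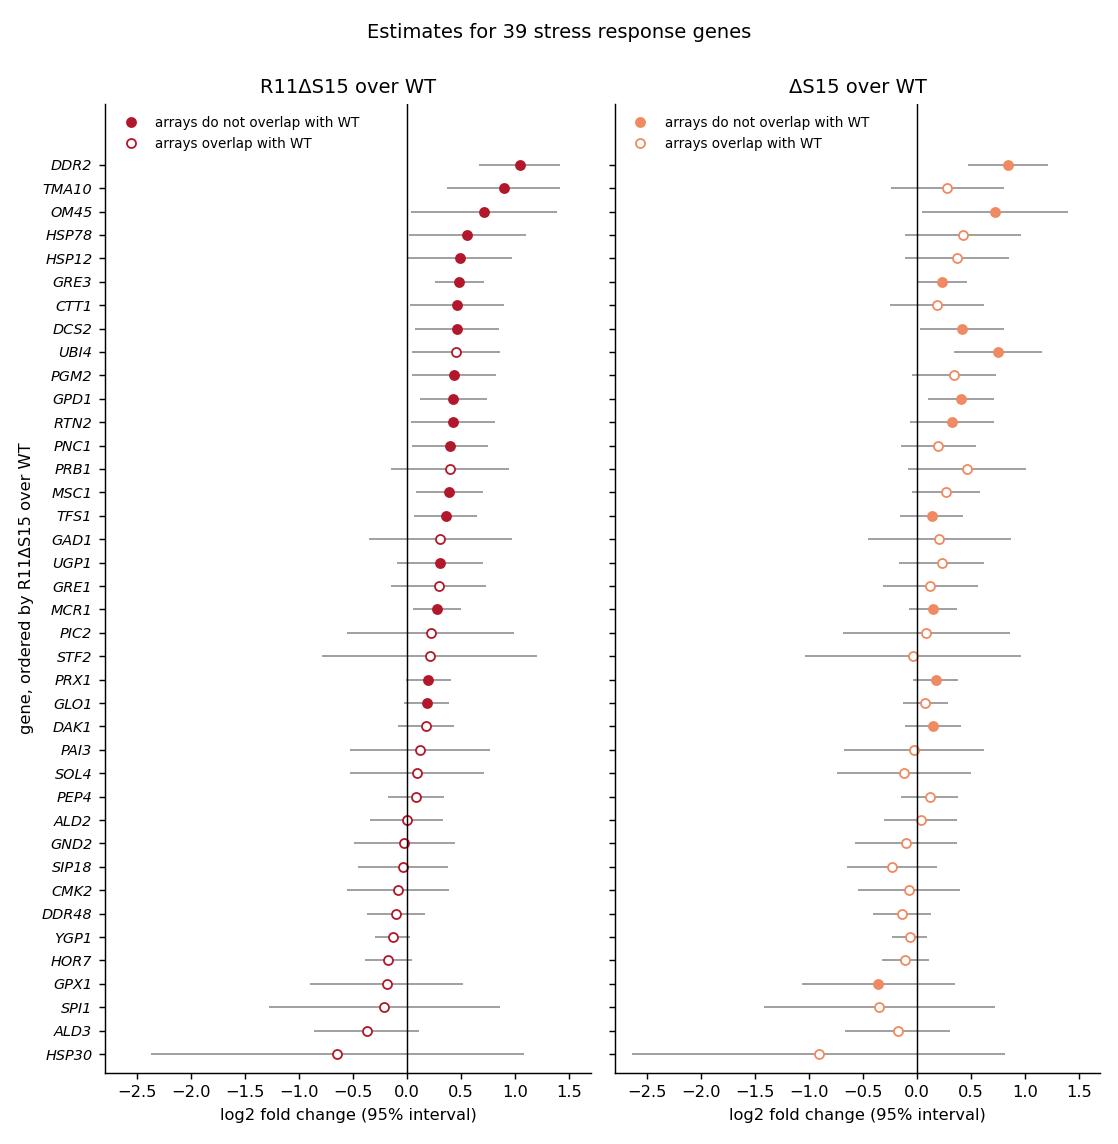
Log2 fold change over WT of the 39 genes in R11ΔS15 (left) and ΔS15 (right), in the order of the R11ΔS15 estimates, with 95% intervals; filled points are genes whose arrays do not overlap with WT. In R11ΔS15 28 points lie right of 0 and 18 are filled on that side, and in ΔS15 26 lie right of 0 and 11 are filled on that side.

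Within the dimmer spike-in set, both R11ΔS15 arrays lay above WT replicate 3 in 21 of the 39 genes (53.8%), against 23.3% of all genes, and both lay below it in 5 (12.8%), against 41.8% of all genes. The genes below were ALD2, CMK2, PAI3, SIP18 and UBI4. DDR2, TMA10, HSP12, GRE3, GPD1, CTT1, OM45, HSP78, PGM2 and DCS2 were among those above, each against this single WT array. A term for the spike-in set gives this same comparison, the R11ΔS15 mean minus WT replicate 3, since only WT has arrays in both sets. It is therefore no separate check. The median of the 39 genes was then 0.10 (25 on the higher side), where the median of all genes was -0.05. DDR2 had an estimate of 0.75, HSP12 of 0.61, DCS2 of 0.51, GRE3 of 0.40 and TMA10 of 0.39, while CTT1 had 0.12, GPD1 0.14 and HSP78 0.10. Without WT replicate 3, limma called 128 genes, among them DDR2 (adjusted p = 0.0158), UBI4 (0.0191), TMA10 (0.0220), GPD1 (0.0354) and GRE3 (0.0439). The WT arrays that were left belong to the brighter set, whereas those of R11ΔS15 belong to the dimmer one.

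In ΔS15, 26 of the 39 genes were on the higher side of WT with a median of 0.15, where 50.8% of all genes were on that side and their median was 0.00. Both ΔS15 arrays lay above all WT arrays in 11 of the 39 genes (28.2%), against 7.90% of all genes, and below them in 1, GPX1, against 7.79%. An unadjusted limma p under 0.05 was reached on the higher side by 6 of the genes (DDR2, UBI4, OM45, DCS2, GPD1 and GRE3), against 2.68% of all genes. After adjustment 0 of the 5415 genes passed limma's test (145 higher and 141 lower, or 2.60%, at an unadjusted p under 0.05). DDR2 again had the lowest p of all genes (0.85, standard error 0.17, limma adjusted p = 0.782), and UBI4 ranked 4 (0.75, standard error 0.19, limma adjusted p = 0.782).

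The signals listed above show where ΔS15 followed R11ΔS15 and where it did not. GPD1 had an estimate of 0.41 in ΔS15, DCS2 0.42 and OM45 0.73, close to their values in R11ΔS15, and OM45 had 0.20 without the ΔS15 and R11ΔS15 arrays with raised chromosome IX. TMA10 had 0.28, CTT1 0.18, PNC1 0.20, TFS1 0.14 and GRE3 0.24 in ΔS15. By role, the medians in ΔS15 were 0.35 for the mitochondrial proteins (4 of 4 on the higher side), 0.17 for the glycerol and aldehyde enzymes (7 of 8), 0.16 for the peroxide enzymes (3 of 4), 0.14 for the vacuolar and ubiquitin genes (4 of 5), 0.06 for the glucose phosphate enzymes (2 of 4), 0.04 for the small stress proteins (4 of 8) and -0.21 for the membrane proteins (1 of 4).

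Within the dimmer spike-in set, both ΔS15 arrays lay above WT replicate 3 in 17 of the 39 genes (43.6%), against 21.5% of all genes, and below it in 9 (23.1%), against 37.5% of all genes. With the spike-in set as a term, which again sets the strain against WT replicate 3 alone, the median of the 39 genes in ΔS15 was 0.06. On the higher side were 22 genes, and the median of all genes was -0.05. DDR2 then had 0.56, HSP12 0.49, DCS2 0.46 and UBI4 0.27, and TMA10 had -0.22. Without WT replicate 3, limma called 38 genes, among them UBI4 (adjusted p = 0.0180) and DDR2 (adjusted p = 0.0303), with no WT array of the dimmer set left.

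R11ΔS15 and ΔS15 were hybridized in the same spike-in set, so that their difference, the arginine in the absence of serine 15, does not involve the split. The estimates of 30 of the 39 genes were higher in R11ΔS15 than in ΔS15, with a median of 0.10, where 50.2% of all genes were higher and their median was 0.00. With each array left out the number was 24 to 30 and the median 0.062 to 0.105. Without ΔS15 replicate 2 it was 25 genes with a median of 0.062, near all genes, of which 61.7% were then higher (median 0.040). In 8 of the 39 genes (GPX1, GRE3, MCR1, PAI3, PNC1, STF2, TFS1 and TMA10) both R11ΔS15 arrays lay above both ΔS15 arrays, against 8.37% of all genes, and UBI4 was the only one below, against 7.94%. TMA10 had the largest difference, 0.61 (standard error 0.26, limma adjusted p = 1), and was the only one of the 39 genes with an unadjusted p under 0.05. CTT1 followed with 0.28 (standard error 0.22), HSP30 with 0.26 and GRE3 with 0.25 (standard error 0.11). On the lower side UBI4 had -0.31 (standard error 0.20). The whole difference was small beside the spread: 0 of the 5415 genes passed limma's test, and 6 (0.111%) were higher and 17 (0.314%) lower at an unadjusted p under 0.05.

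With serine 15 in place, the arginine left the 39 genes near WT. In R11, 17 of them were on the higher side with a median of -0.03, where 43.5% of all genes were higher and their median was -0.02. Both R11 arrays lay above WT in 1 of the 39 genes (GLO1, 0.14, standard error 0.09), against 3.62% of all genes, and below WT in 1 (SIP18), against 4.71%. SIP18, which encodes a hydrophilin made in drying cells, had signals of 92.9 and 88.0 in R11ΔS15, 68.2 and 92.0 in ΔS15, 74.6 and 67.9 in R11, 101.6 and 88.4 in K11, and 88.3, 90.4 and 99.9 in WT. The R11 arrays and 1 ΔS15 array were the low ones. Its R11 estimate was -0.38 (standard error 0.19, limma adjusted p = 1), the largest of the 39 genes in either direction in R11. None of the 39 genes had an unadjusted p under 0.05 in R11, and among all genes 0 passed limma's test while 5 (0.0923%) were higher and 14 (0.259%) lower at that level. Without WT replicate 3, which leaves only arrays of the brighter spike-in set, the R11 median was 0.05 and 23 of the genes were on the higher side.

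K11, which carries a lysine in place of that arginine, had 28 of the 39 genes on the higher side of WT but with a median of 0.05 only, where 44.5% of all genes were higher and their median was -0.01. In 5 of the 39 genes (DDR48, GLO1, HOR7, MSC1 and RTN2) both K11 arrays lay above WT, against 4.60% of all genes, and in GRE3 they lay below, against 4.17%. The largest estimates were those of HSP30 (0.56, standard error 0.79), SPI1 (0.37, standard error 0.49) and DDR2 (0.34, standard error 0.17, limma adjusted p = 1). The HSP30 estimate in K11 was -0.44 without K11 replicate 1. Of all genes 0 passed limma's test in K11, with 8 (0.148%) higher and 15 (0.277%) lower at an unadjusted p under 0.05, none of them among the 39. Without WT replicate 3 the K11 median was 0.10, and 33 of the 39 genes were on the higher side. That number was 23 without K11 replicate 1, without K11 replicate 2 or without WT replicate 2.

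Arginine and lysine at position 11 were compared directly, again within 1 spike-in set. In R11 32 of the 39 genes were lower than in K11 and 7 were higher, with a median of -0.09, where 49.1% of all genes were higher and their median was -0.00. The number of genes higher in R11 was 11 without R11 replicate 1, 16 without R11 replicate 2, 12 without K11 replicate 1 and 14 without K11 replicate 2, while the median stayed between -0.12 and -0.078. Both R11 arrays lay below both K11 arrays in 9 of the 39 genes (ALD2, ALD3, CTT1, DDR2, DDR48, MSC1, PRX1, RTN2 and SIP18), against 8.90% of all genes, and above them in 0, against 8.0%. The largest differences were those of SIP18 (-0.41, standard error 0.21), ALD3 (-0.32, standard error 0.24), PAI3 (-0.28, standard error 0.32) and DDR2 (-0.28, standard error 0.19). OM45 (-0.27, standard error 0.34) and RTN2 (-0.27, standard error 0.20) followed. Of these, PAI3 and OM45 overlapped between the strains. No gene passed limma's test in this comparison (2 higher, or 0.0369%, and 10 lower, or 0.185%, at an unadjusted p under 0.05, none of them among the 39).

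Whether the arginine acted differently without and with serine 15 was tested as the difference between its effects, R11ΔS15 against ΔS15 minus R11 against WT. For 30 of the 39 genes this difference was above 0, with a median of 0.11, where 55.5% of all genes were above 0. The median was 0.049 without WT replicate 3 or with the spike-in set as a term, which give the same estimates here (29 genes above 0). The number above 0 was 23 without R11 replicate 1. TMA10 had 0.66 (standard error 0.35), SIP18 0.57 (standard error 0.28) and GRE3 0.30 (standard error 0.15), and UBI4 had -0.26 (standard error 0.28), each with a limma adjusted p of 1. Of all genes 0 passed this test, and 2 (0.0369%) were above and 5 (0.0923%) below 0 at an unadjusted p under 0.05.

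The 39 genes did not form 1 pattern over the arrays. Each gene was set against the median deviation of the other 38 on the 11 arrays, as a description over arrays that share strains and spike-in sets. Pearson's r was above 0.6 for 16 genes, led by DDR2 (0.95), TMA10 (0.86), GRE3 (0.84) and GPD1 (0.83). It was below -0.6 for HOR7 (-0.71) and YGP1 (-0.80), and lay between these bounds for the remaining 21, among them the reporter HSP12 (0.45). Among genes outside the list, those most like the median of the 39 were GLC3 (0.97), the glycogen branching enzyme gene, ATO2 (0.96), a putative transporter gene, KGD2 (0.96) and SDH2 (0.94), which belong to the citric acid cycle, and YIM1 (0.93). The least like were the ribosomal protein genes RPS20 (-0.96) and RPL10 (-0.94) and the superoxide dismutase gene SOD1 (-0.95).

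Another division of the 39 genes ran across replicates. HSP30, SPI1, STF2, PIC2 and GPX1 were higher in replicate 1 than in replicate 2 by more than 0.5 log2 in each of R11, K11 and WT, and were picked out after their values had been seen. These are 5 of 39 genes (12.8%), where 0.960% of all genes did so, and GAD1 was the only one lower by as much in all 3 strains, against 1.18% of all genes. The mean ratio of replicate 1 to replicate 2 was 4.87 for HSP30, 2.68 for SPI1, 2.50 for STF2, 2.01 for PIC2 and 1.81 for GPX1. For HSP30 the first replicates had signals of 3216 to 3330 and the second 545 to 839, with 836 on WT replicate 3 and 505 to 897 on the arrays of R11ΔS15 and ΔS15. Their standard errors against WT were the largest of the list (HSP30 0.79, SPI1 0.49, STF2 0.46, PIC2 0.35 and GPX1 0.32) in the fit that did not pair the replicates. With the replicate number as a block, R11 against K11 had estimates of -0.18 for HSP30 (standard error 0.67), -0.15 for SPI1 (0.43), -0.13 for STF2 (0.44), -0.054 for PIC2 (0.25) and 0.067 for GPX1 (0.27), each smaller than its standard error.

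**Figure D4:**
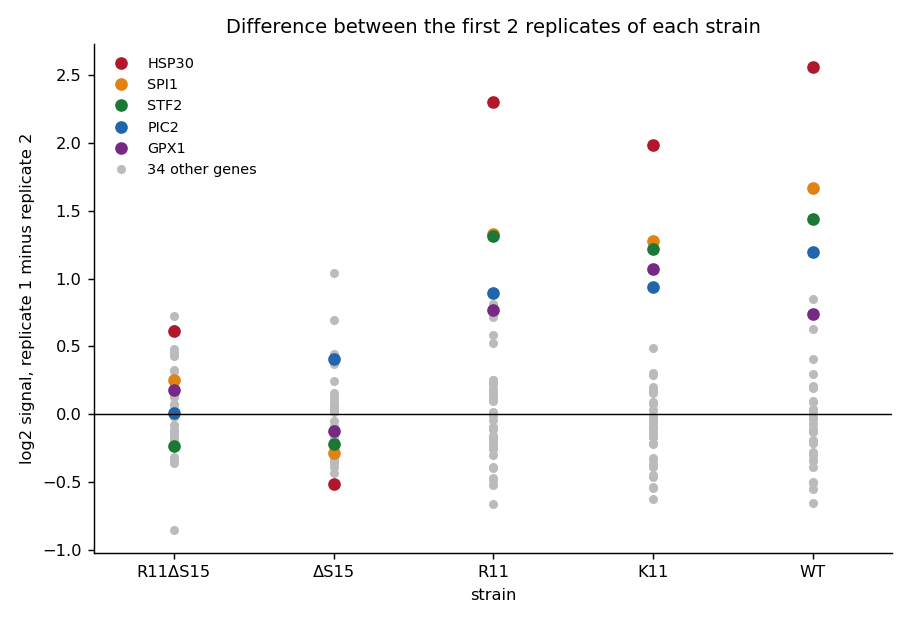
Log2 signal of replicate 1 minus replicate 2 in each strain for the 39 genes; each point is 1 gene, and the 5 coloured genes were chosen after their values had been seen. The coloured genes lie above 0.5 in R11, K11 and WT, whereas in R11ΔS15 and ΔS15 they lie on both sides of 0.

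By position, 11 of the 39 genes (28.2%) are on chromosome XIII, which holds 7.81% of the tested genes. ALD3, ALD2, DDR48, PAI3 and SIP18 are close neighbours there, and their R11ΔS15 estimates were between -0.37 and 0.12, none without overlap. GAD1 and HOR7 lie near each other on the same chromosome and had 0.31 and -0.17. MSC1, PGM2, DAK1 and GLO1, placed elsewhere on it, had 0.39, 0.43, 0.18 and 0.18.

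Other gene lists, of the same pathway and of other stress regulators, were set beside the 39 genes, with no test of the lists. A further 57 STRE targets included the trehalose and glycogen genes and HSP26 and HSP104. Of these, 47 were on the higher side in R11ΔS15 (median 0.19) and 43 in ΔS15 (median 0.09). In 16 of them (28.1%) both R11ΔS15 arrays lay above all WT arrays, against 10.6% of all genes. The array medians of these 57 genes were 0.167 and 0.172 in R11ΔS15 and 0.066 and 0.147 in ΔS15. In WT they were -0.043, -0.041 and 0.145, so replicate 3, of the dimmer spike-in set, lay near ΔS15 and little below R11ΔS15. Of 22 targets of the heat shock factor Hsf1, 17 were on the higher side in R11ΔS15 (median 0.16) and 19 in ΔS15 (median 0.11). Their array medians were 0.10 and 0.20 in R11ΔS15 and 0.109 and 0.083 in ΔS15, against -0.146, 0.051 and 0.084 in WT. Of 21 targets of Yap1, the regulator of the response to oxidants, 8 were on the higher side in R11ΔS15 (median -0.03). These lists share a few genes with each other, HSP104 among them.

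The genes of the pathway that controls Msn2 and Msn4 had a median close to 0. Of 44 such genes 24 were on the higher side in R11ΔS15 (median 0.04). Above all WT arrays lay 8 (18.2%), against 10.6% of all genes, and below them 2 (4.55%), against 12.6%. An unadjusted limma p under 0.05 was reached by 6 (13.6%), all higher, against 4.34% of all genes on that side. Of the 14 genes of the protein kinase A branch, which belong to this pathway, 8 were on the higher side (median 0.11). Of the same 14, 5 (35.7%) lay above all WT arrays, where 10.6% of all genes did so. The array median of these 14 genes was 0.022 and 0.13 in R11ΔS15, against -0.12, -0.048 and 0.19 in WT, where replicate 3 was the highest of all arrays. In ΔS15 11 of the 14 were on the higher side (median 0.15) and 2 (14.3%) lay above all WT arrays, against 7.90% of all genes. The largest estimate of the branch in R11ΔS15 was that of BCY1, the regulatory subunit gene (0.70, standard error 0.25, limma adjusted p = 0.449), which lies on chromosome IX. MSN2 had an estimate of -0.07 (limma adjusted p = 0.919) and MSN4 of 0.16 (limma adjusted p = 0.791) in R11ΔS15. Their transcript levels do not report on where the proteins are in the cell. The 50 genes of ribosome biogenesis went the other way: 0 of them were on the higher side in R11ΔS15 (median -0.28) and 6 in ΔS15 (median -0.17). Both R11ΔS15 arrays lay below WT in 38 of them (76.0%), against 12.6% of all genes. The array medians of these 50 genes were -0.31 and -0.27 in R11ΔS15 and -0.29 and -0.04 in ΔS15, against -0.03 to 0.02 in WT, where replicate 3 was the lowest. The R11ΔS15 array at -0.27 and the ΔS15 array at -0.29 are those with raised chromosome IX. Without both, the median of the 50 genes was -0.31 in R11ΔS15 and -0.04 in ΔS15. Of the 18 markers of the post-diauxic and stationary phase 11 were on the higher side in R11ΔS15 (median 0.09).

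**Figure D5:**
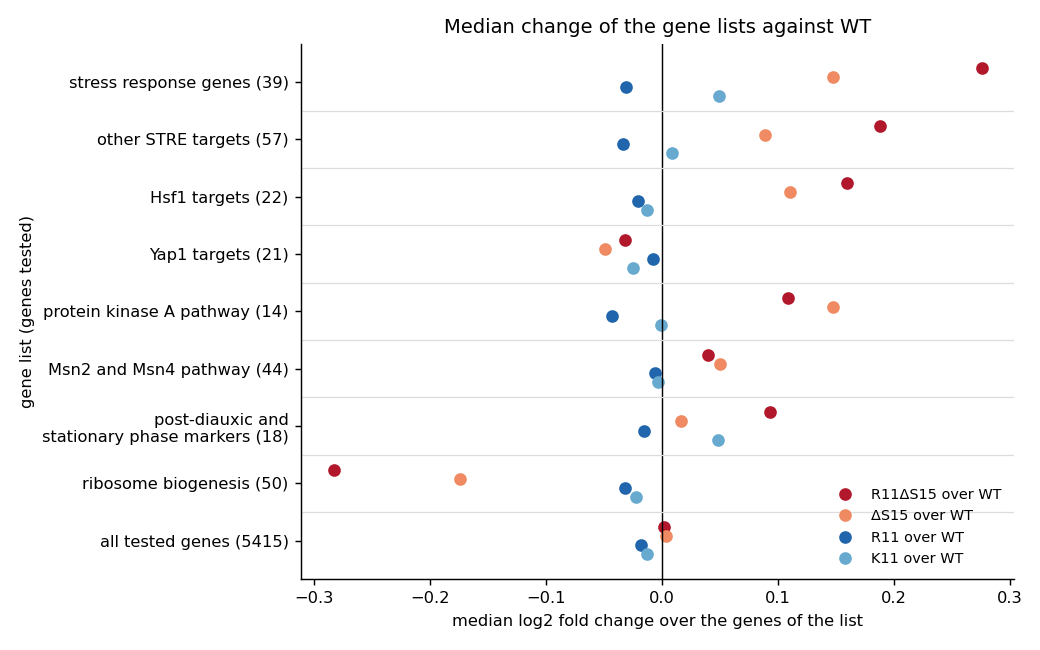
Median log2 fold change over WT of the 39 genes and of the other gene lists (rows, with the number of genes tested) in R11ΔS15, ΔS15, R11 and K11. The 39 genes lie at 0.28 in R11ΔS15 and 0.15 in ΔS15, ribosome biogenesis lies at -0.28 and -0.17, and the R11 and K11 medians of the 39 genes are -0.03 and 0.05.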

How the data were processed

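Poly(A) RNA of 5 strains was hybridized to 11 Affymetrix Yeast Genome 2.0 arrays by a core facility. The deposited values are signal intensities (MAS5, linear), which the authors obtained by the manufacturer's method (the version is not given in the sources used here). The 2% trimmed mean of each array was 500.2 to 500.3, and no scaling was added. The chip holds 10928 probe sets, of which 213 are controls. Through the array annotation and gene identifiers of the RefSeq table of the R64 assembly, 5498 could be assigned to a gene of S. cerevisiae. A further 1747 had a gene identifier that is absent from that table and were taken as those of S. pombe. The other 3470 were not assigned. Background was set at the level below which 95% of the S. pombe probe sets lay by mean log2 (a signal of 5.10). One probe set per gene, the brightest, was kept if its mean lay above it, which left 5415 genes. Gene positions were taken from the same RefSeq table, and their coordinates are not printed. limma 3.58.1 (R 4.3.3) was fitted to the log2 signals (1 coefficient per strain over 11 arrays, 6 residual degrees of freedom, variance trend), with Benjamini-Hochberg adjustment over all tested genes and a threshold of 0.05. The number of arrays limits the precision, and the median standard error against WT was 0.16. The fit was tested on simulated data.

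The members, their 8 roles and the other lists were chosen with earlier results of these data known, so lists are described by counts and medians beside all genes, without a test. Values on every array are given for genes at 2-fold, the 12 largest changes in R11ΔS15, the largest of each role, up to 3 in ΔS15, 1 each in R11 and K11, and HSP12, CTT1 and DDR2. Outside the list, the 5 most and 3 least similar genes are named. The 24 alternatives were quantile normalization, 50 added to each signal, centring on the median, other filters and summaries of probe sets, each array left out, a block for the replicate number, array weights, no variance trend, only the strains compared, a term for the spike-in set, and leaving out both arrays with raised chromosome IX. Plots were made in Python 3.11.15 (matplotlib 3.10.9).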

Additional observations from a re-analysis of the deposited data

How the results depend on the processing

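Under the 24 alternatives the median of the 39 genes stayed above 0 in R11ΔS15, ΔS15 and K11. It was 0.28 in R11ΔS15 and became 0.23 with 50 added to every signal, 0.34 with array weights, 0.22 without both arrays with raised chromosome IX, 0.10 with the spike-in set as a term and 0.21 to 0.32 with each array left out. In ΔS15 it was 0.062 with that term and 0.094 to 0.19 with each array left out. In K11 it was 0.10 with array weights, 0.10 with that term and 0.028 to 0.10 with each array left out. In R11 it turned from below to above 0, with 0.015 with array weights, 0.052 with the spike-in term and -0.056 to 0.052 with each array left out. The median difference between the effects of the arginine without and with serine 15 was 0.049 with the spike-in term and 0.049 to 0.14 with each array left out. The cause of these shifts was not tested. With the spike-in term R11ΔS15 and ΔS15 are set against WT replicate 3 alone. Its values for R11, K11 and the difference of effects are those without WT replicate 3.

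With each array left out, limma called 0 to 128 genes in R11ΔS15 and 0 to 38 in ΔS15, the most without WT replicate 3 in both, and 0 to 1 in R11, where the call came without R11 replicate 2. The estimate of HSP30 was -1.18 to 0.10 in R11ΔS15, above 0 only without WT replicate 1, and -0.44 to 1.55 in K11, below 0 only without K11 replicate 1. UBI4 in R11ΔS15 was -0.036 with the spike-in term. The number of the 39 genes higher in R11 than in K11 was 7 to 16 with each array left out.

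Deviations of arrays with the same replicate number correlated at 0.49 to 0.66 among R11, K11 and WT whereas pairs that involve ΔS15 or R11ΔS15 gave -0.05 to 0.21. The labels name no shared batch, so the numbers were not used as a block in the reported fit. With the replicate block, in which WT replicate 3 has a number of its own and drops out of the contrast, limma called 343 genes in R11ΔS15 (CTT1, DDR2, GPD1, GRE3, HSP78, TMA10 and UBI4 of the 39) and 173 in ΔS15 (DDR2, GPD1 and UBI4), and the medians were 0.32 in R11ΔS15, 0.19 in ΔS15, 0.052 in R11, 0.10 in K11 and 0.049 for the difference of effects. Only 1 WT array shares the spike-in set of the strains without serine 15, which limits every comparison of them with WT.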
